A study of Mus musculus with 16 samples.

Results

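The genes described here encode the proteins of the cytosolic ribosome. They were taken as probe sets whose single annotated symbol begins with Rpl or Rps and a digit, or is Rplp0, Rplp1, Rplp2 or Rpsa, without the Rps6k kinases, the Rps19bp genes and pseudogenes. The probe set with the highest mean signal stood for each gene. This gave 48 genes of 12393 genes with a probe set of their own, 26 of the large and 22 of the small subunit, and 45 of them passed the filter on dim genes. A further 30 ribosomal protein genes, Rplp1, Rpl3 and Rpl5 among them, were annotated only on probe sets shared by several genes and are not described.

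Neural stem cells of adult mice were grown in culture, and their RNA was hybridised to 16 Affymetrix arrays. All cultures carried the same pair of Tlx alleles, written f/Z, where Tlx is Nr2e1, an orphan nuclear receptor of neural stem cells. The 8 groups of 2 arrays were CreER cultures given 4-hydroxytamoxifen (4OHT), CreER cultures given vehicle, cultures without Cre given 4OHT and cultures without Cre given vehicle, each collected 60 h and 36 h after treatment. CreER is a Cre recombinase that enters the nucleus when 4OHT binds it; its promoter, and whether the 2 arrays of a group came from separate animals, were not given in the sources used here. In the series design the 2 arrays of each group are biological replicates, and p-values here rest on the spread between replicates, which may be technical. As deposited, that spread was the one fitted over genes of like signal, and not a gene's own. No probe set carried the Nr2e1 symbol alone, so loss of Tlx RNA was not checked.

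Array medians lay between 92.2 and 132.6, and the brightest was 1.44 times the dimmest. Values are therefore given as deposited and after scaling every array to a common median, since a ribosomal protein gene can differ on one scale and not on the other. Of 13 neural stem and progenitor markers 12 had a probe set and 10 passed the filter, Nes, Sox2 and Fabp7 among them; 5 of 8 astrocyte, 4 of 9 oligodendrocyte lineage and 2 of 8 neuron markers passed, while 1 of 8 microglia, 0 of 6 endothelial, 0 of 5 fibroblast and 0 of 4 ependymal markers did.

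A ribosome is built from ribosomal RNA and a protein set that is needed in nearly equal amounts, so ribosomal protein mRNAs are among the most abundant in growing cells and tend to vary together. Many of them begin with a C followed by a run of pyrimidines, the terminal oligopyrimidine (TOP) motif, through which mTOR and Larp1 set how much of the mRNA is translated without much change in its amount. Some ribosomal proteins also bind Mdm2, the ubiquitin ligase that degrades p53, when ribosome assembly is disturbed, and a few genes have paralogs whose products can replace the main protein.

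The start windows are shown for the members that carry the TOP motif in the annotation used. RefSeq transcription starts of assembly GRCm38.p6 were matched to 42 of the 48 genes, giving 50 start windows. A C followed by at least 4 letters that are each C or T began exactly at the start base in 8 windows (16.0%), against 2.55% of 8160 windows of the genes tested and 2.51% of all 32851 windows. It began within 5 bases of the start in 21 of the 50 windows (42.0%), against 19.7% and 18.3% of these. Both were read on the gene's strand. The 7 letters CCGGAAG, read on both strands in the 300 bases from 250 before to 50 after the start, were in 42.0% of the members' windows, 18.9% of those of the genes tested and 8.86% of all, and TATAAA in 12.0%, 6.53% and 13.6%. The 8 windows with the motif at the start are printed below as 15 bases before and 15 from the start base. Capitals mark the C at the start base and the pyrimidines that follow it. In all 8 the base before the capitals is a pyrimidine too, so the whole pyrimidine stretch begins before the start base.
Rpl14, large subunit, chr9:120571502-120571531, plus strand: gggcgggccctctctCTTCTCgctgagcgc
Rpl35, large subunit, chr2:39005117-39005146, minus strand: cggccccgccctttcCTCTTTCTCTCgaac
Rpl38, large subunit, chr11:114668565-114668594, plus strand: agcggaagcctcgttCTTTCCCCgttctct
Rplp2, stalk of the large subunit, chr7:141447636-141447665, plus strand: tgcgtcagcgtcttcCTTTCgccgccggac
Rps10, small subunit, chr17:27635230-27635259, minus strand: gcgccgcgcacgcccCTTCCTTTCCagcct
Rps18, small subunit, chr17:33955651-33955680, minus strand: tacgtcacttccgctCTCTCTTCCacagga
Rps27, small subunit, chr3:90213634-90213663, minus strand: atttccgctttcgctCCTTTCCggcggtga
Rps6, small subunit, chr4:86857353-86857382, minus strand: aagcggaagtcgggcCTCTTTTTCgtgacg
The next windows belong to the genes called with 4OHT in CreER cultures over both times, described below. The runs in capitals begin 1 base before the start in Rpl27a, 3 bases after it in Rpl22l1 and 4 bases before it in Rpl39. In Rpl27a and Rpl22l1 the bases just before the capitals are pyrimidines too. Rps25 has no such run within 5 bases. Of the pair of Rps27l windows, the run begins 1 base after the start in the first and the other has none within 5 bases.
Rps27l, paralog of Rps27, chr9:66946071-66946100, plus strand: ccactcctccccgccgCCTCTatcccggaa
Rps27l, other start, chr9:66946398-66946427, plus strand: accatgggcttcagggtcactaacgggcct
Rpl27a, large subunit, chr7:109519180-109519209, plus strand: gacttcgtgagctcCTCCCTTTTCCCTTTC
Rpl22l1, paralog of Rpl22, chr3:28805493-28805522, plus strand: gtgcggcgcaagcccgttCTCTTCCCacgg
Rpl39, large subunit, chrX:37085208-37085237, minus strand: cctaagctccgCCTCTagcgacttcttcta
Rps25, small subunit, chr9:44407699-44407728, plus strand: tttttccgacatcttagcgaggctgctgtg

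Most of the genes gave near the strongest signals on the arrays. The mean signal over 16 arrays was 2000 or more for 36 genes, between 2292 for Rpl22 and 11851 for Rpl41, a very short protein of the large subunit whose probe set was the brightest of all on 14 arrays. The median rank of the 45 genes past the filter was the 99.57th percentile of the 22626 probe sets that are not controls. Another 9 genes past the filter had dim probe sets, with means between 149.7 for Rps27 and 1483 for Rpl37. Of these, 8 were also annotated on a probe set shared with other genes. For all 8 the brightest shared probe set was 4.5 to 44.7 times as bright, as for Rpl27a with 7972 against 215. For these 8 a dim probe set thus does not by itself show a scarce mRNA, and how much of the shared signal came from each gene was not tested. Rpl7l1 had no shared probe set, and its own had means of 977 and 933. The 3 genes under the filter were paralogs whose mean signal was 1.16 (Rps4l), 3.55 (Rpl3l, a form known from striated muscle) and 7.79 (Rpl39l, a form known from testis), and none of the 3 exceeded 18.6 on any array.

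The median SD within groups over the 45 genes was 0.12 on the log2 scale as deposited and 0.07 after median scaling, against 0.18 and 0.10 over all genes tested. For the 36 bright members it was 0.11 and 0.07, against 0.15 and 0.07 for 683 other genes with a mean signal of 2000 or more. After scaling the replicates of these members were thus as close as those of other genes over that floor. The sets were not matched in signal above it. Over the 45 the SD was largest for Rps27 (0.44 as deposited) and Rpl39 (0.35), which had dim probe sets, and smallest for Rpl41 (0.07). Over the 16 arrays after median scaling, each gene's r with the mean of the other members had a median of 0.930, and 34 genes were over 0.8. The lowest were Rpl39 (0.18), Rps27 (0.28), Rps27l (0.30), Rps24 (0.30) and Rpl22l1 (0.35), and the highest was Rpl10a (0.994). These correlations describe arrays that share 4 conditions and 2 genotypes, and carry no test.

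The comparison of 4OHT with vehicle in CreER cultures asks what follows recombination of Tlx. As deposited, the ribosomal protein genes stayed close to their vehicle level. Over both times 1 of 45 genes was higher and 0 were lower, where 4.0% of all 7619 genes were higher and 8.36% lower. The median log2 change was -0.02, against -0.07 over all genes, with an SE of 0.08 to 0.15 per gene, and 36 of the 45 changes were under 0.1 in size. The median was -0.04 for 24 large subunit genes and -0.02 for 21 small subunit genes. The unadjusted p was under 0.05 for 2 of 45 genes and for 1937 of all genes tested.

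After median scaling the median change was 0.03 and the calls were 2 higher and 2 lower of 45, where 13.9% of all genes were higher and 19.1% lower. Of the 36 bright members 1 was higher and 1 lower. Of 683 other genes with a mean signal of 2000 or more, 105 were higher and 121 lower (15.4% and 17.7%). The sets were not matched in signal above that floor. The 4 genes called were the paralogs Rps27l (higher) and Rpl22l1 (lower), Rpl27a (higher) and Rps25 (lower). Rplp0, the stalk protein often used as a reference gene, changed by 0.00 ± 0.09 (SE) as deposited and 0.05 ± 0.05 after scaling, with adjusted p of 0.996 and 0.401. Rps6, the target of the S6 kinases, changed by -0.06 ± 0.13 as deposited, Rpl11, which binds Mdm2, by -0.04 ± 0.10, and Rpsa, the laminin receptor protein of the small subunit, by -0.10 ± 0.09; their adjusted p-values were 0.832, 0.857 and 0.534.

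**Figure D1:**
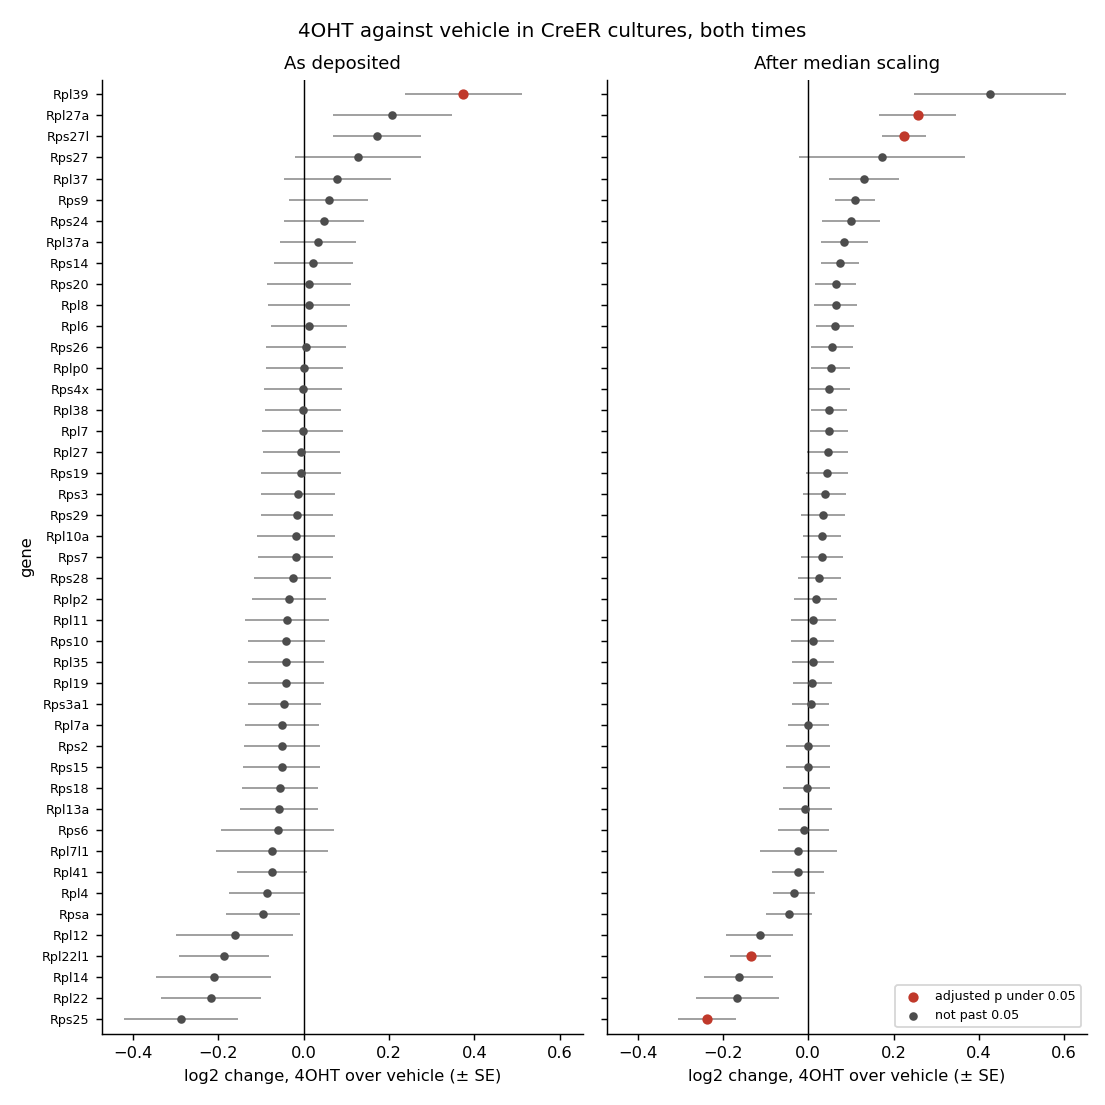
Log2 change of each of 45 ribosomal protein genes, 4OHT over vehicle in CreER cultures over both times, as deposited on the left and after median scaling on the right; points are estimates, lines ± 1 SE, and red marks an adjusted p under 0.05. Most points lie within 0.1 of 0, Rpl39 stands at 0.37 as deposited, and Rps27l, Rpl27a, Rpl22l1 and Rps25 are marked only after scaling.

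Rps27l is the paralog of Rps27 and, in human cells, a direct p53 target. Its median-scaled signal in CreER cultures at 60 h was 4989 and 4898 with 4OHT, against 4048 and 4087 with vehicle. At 36 h it was 4625 and 5183 with 4OHT, against 4307 and 4414 with vehicle. The 4OHT arrays lay above the vehicle arrays at each time, whereas as deposited the groups overlapped at both times. These values were 4083 and 4907 with 4OHT and 4426 and 3679 with vehicle at 60 h. At 36 h they were 4365 and 5003 with 4OHT and 3740 and 4448 with vehicle. At each time in CreER cultures, groups lay apart in this way in the higher direction for 2 of 45 members and 13.8% of all genes after scaling. The change over both times was 0.17 ± 0.10 (SE) as deposited, with an adjusted p of 0.292, and 0.22 ± 0.05 after scaling, with an adjusted p of 0.0025. The other probe sets of Rps27l gave 0.19 and 0.20 as deposited, so all 3 moved alike, though they share sequence.

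Without Cre, median-scaled Rps27l at 60 h was 4409 and 4353 with 4OHT, against 4108 and 4116 with vehicle. At 36 h it was 5352 and 4812 with 4OHT, against 5320 and 4668 with vehicle, and these overlapped. The change with 4OHT over both times was 0.06 ± 0.05 after scaling (adjusted p = 0.756). The difference of the responses, CreER minus no Cre, was 0.20 ± 0.14 as deposited (adjusted p = 0.718) and 0.16 ± 0.07 after median scaling (adjusted p = 0.135), so it was not called on either scale. It was called after 2 other scalings, at 0.21 by the trimmed mean (adjusted p = 0.0072) and 0.16 by quantile normalization (adjusted p = 0.016).

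Rps25, a small subunit protein that binds Mdm2 and is needed for some internal ribosome entry, moved the other way. Its median-scaled signal at 60 h in CreER cultures was 541 and 490 with 4OHT, against 583 and 595 with vehicle. At 36 h it was 518 and 602 with 4OHT, against 682 and 687 with vehicle. The 4OHT arrays were below the vehicle arrays at each time, also as deposited. The change was -0.29 ± 0.13 as deposited (adjusted p = 0.147) and -0.24 ± 0.07 after scaling (adjusted p = 0.0104). Without Cre it was -0.06 ± 0.13 and 0.02 ± 0.07, and the difference of responses was -0.26 ± 0.10 after scaling with an adjusted p of 0.0713. Its probe set was among the 9 dim ones (mean signal 545), and a probe set that Rps25 shares with other genes had a mean signal of 5006.

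Rpl22l1 can replace Rpl22, an RNA-binding protein of the large subunit. Scaled Rpl22l1 at 60 h in CreER cultures was 3665 and 3680 with 4OHT, against 3877 and 4053 with vehicle, and at 36 h it was 4154 and 3786, against 4487 and 4382. The groups did not overlap at either time after scaling, but as deposited they overlapped at both. Those values were 3000 and 3687 with 4OHT and 4239 and 3649 with vehicle at 60 h. At 36 h they were 3921 and 3654 with 4OHT and 3896 and 4416 with vehicle. The change was -0.19 ± 0.11 as deposited (adjusted p = 0.262) and -0.14 ± 0.05 after scaling (adjusted p = 0.0377). Rpl22 itself changed by -0.22 ± 0.12 and -0.17 ± 0.10 (adjusted p = 0.233 and 0.203), while its other probe set gave 0.07 as deposited, so its probe sets disagreed in sign.

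Rpl39, a short protein lining the peptide exit tunnel, was the only member called as deposited. Its signal at 60 h in CreER cultures was 272 and 318 with 4OHT, against 379 and 228 with vehicle. At 36 h it was 300 and 322 with 4OHT, against 165 and 192 with vehicle. The groups lay apart at 36 h and overlapped at 60 h. The change was 0.75 ± 0.19 at 36 h (adjusted p = 0.00996), 0.00 ± 0.19 at 60 h and 0.37 ± 0.14 over both (adjusted p = 0.0487). These SE came from genes of like signal. Its own SD within groups was 0.35, against a median of 0.18 over all genes tested, and these p-values do not reflect it. After median scaling the adjusted p was 0.0486 at 36 h and 0.0729 over both times. The call over both times held only without replicate 1 of the 4OHT or of the vehicle group at 60 h, and leaving out any of the other 6 CreER arrays ended it (adjusted p up to 0.357). That at 36 h held only without replicate 2 of the vehicle group, and was lost without any of the other 3 arrays (adjusted p up to 0.210). Cultures without Cre changed by 0.32 ± 0.14 with 4OHT, and the difference of the responses was 0.06 ± 0.19 (adjusted p = 0.973).

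**Figure D2:**
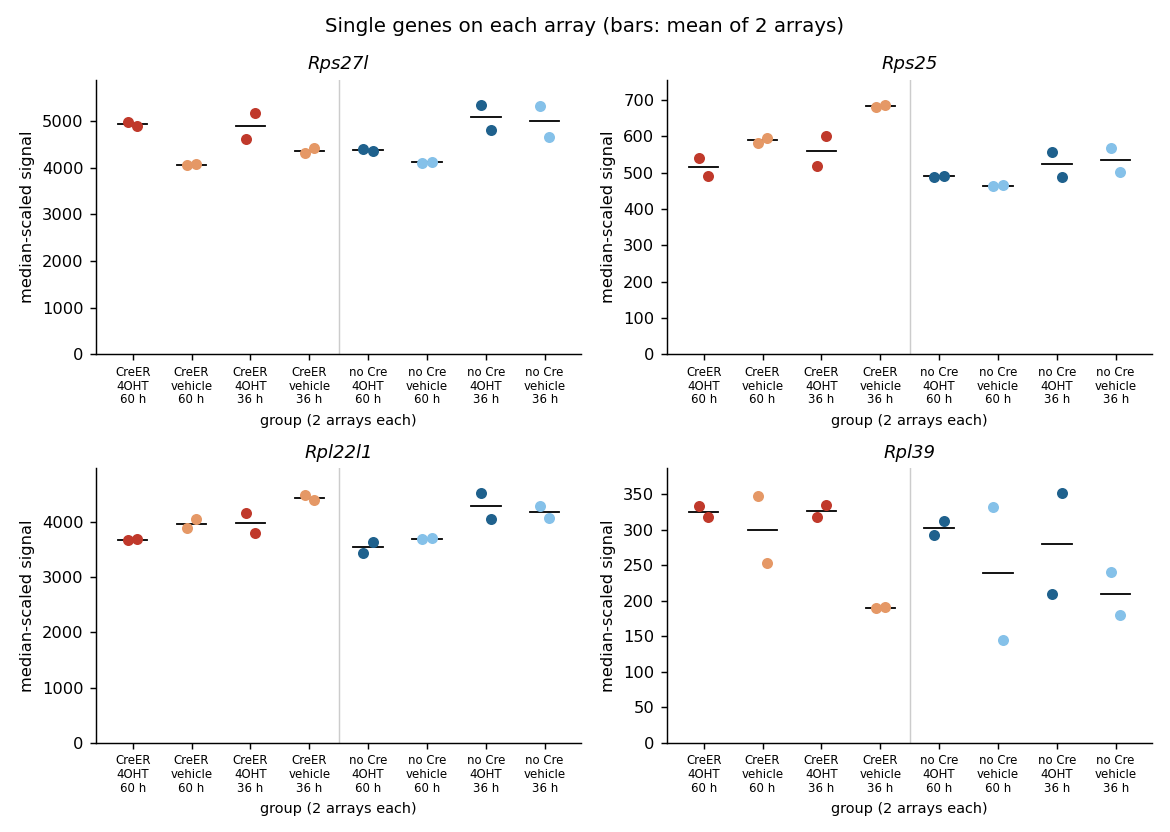
Median-scaled signal of Rps27l, Rps25, Rpl22l1 and Rpl39 on each of the 16 arrays by group, with bars at the mean of 2 arrays. In CreER cultures Rps27l is higher and Rps25 and Rpl22l1 are lower with 4OHT than with vehicle at both times, and Rpl39 is apart at 36 h only.

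At single times the counts stayed small. At 60 h 0 of 45 genes were called as deposited (2.36% of all genes higher and 4.63% lower). After scaling 1 was higher and 1 lower, with a background of 13.6% and 9.88%: Rps27l at 0.28 ± 0.07 (adjusted p = 0.0088) and Rpl14, a large subunit protein, at -0.33 ± 0.11 (adjusted p = 0.0403). At 36 h Rpl39 was the 1 gene called as deposited, with a background of 1.12% higher and 1.5% lower. After scaling 3 were higher (Rpl39, Rpl27a and Rpl37) and 1 was lower (Rps25), with a background of 4.74% and 14.5%. The CreER response at 60 h minus that at 36 h was called for 0 of 45 genes on either scale. Of all genes 0.197% were called as deposited and 2.1% after scaling. Unadjusted p was under 0.05 for 2 members on each scale, and for 326 and 1340 of all genes tested.

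Without Cre, 4OHT asks what the drug does by itself. Of 45 genes 0 were called as deposited or after median scaling, where 0.0656% and 0.263% of all genes were. The unadjusted p was under 0.05 for 1 member, Rpl39, on each scale, and for 224 and 756 of all genes tested. The members' median change was -0.05 as deposited and 0.03 after scaling, and 43 of the 45 changes were under 0.1 in size as deposited. For the difference of the responses, CreER minus no Cre, 0 of 45 were called on both scales (2.34% and 15.7% of all genes). Its unadjusted p was under 0.05 for 0 members as deposited and 3 after scaling, and for 853 and 2283 of all genes tested.

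The widest difference within the family was between genotypes, and it was relative to the rest of the array. The 48 genes took 4.71 ± 0.17% of the signal summed over all genes on CreER arrays and 4.21 ± 0.08% on arrays without Cre (SD, n = 8 arrays each). The CreER arrays ranged between 4.41% and 4.93% and the others between 4.10% and 4.34%, with no overlap. The median log2 signal of the members stood 5.97 ± 0.05 above the array median on CreER arrays (range 5.91 to 6.04) and 5.77 ± 0.06 above it on arrays without Cre (range 5.69 to 5.86), again with no overlap. As deposited, the members' median overlapped between the genotypes.

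**Figure D3:**
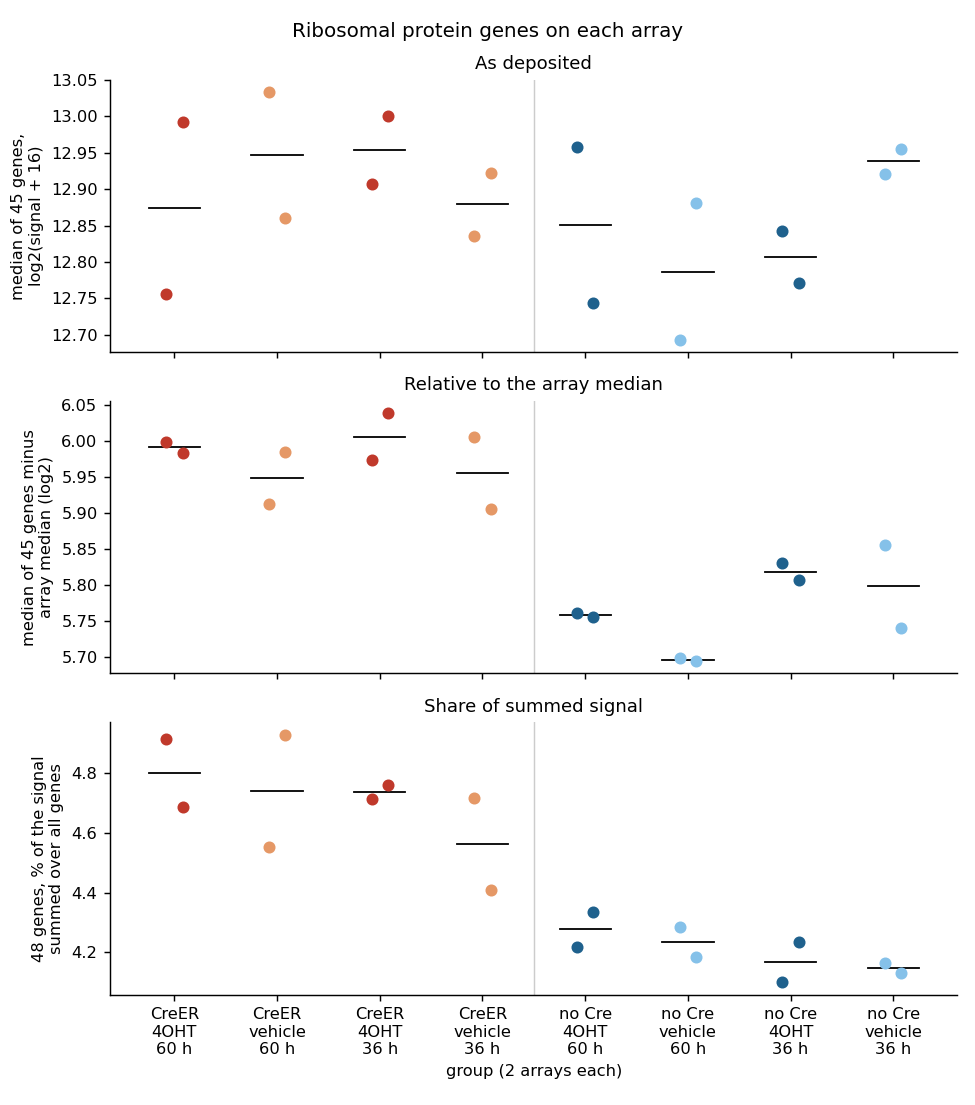
The ribosomal protein genes on each array by group, as the median log2(signal + 16) of 45 genes as deposited (top), the same minus the array's median over all genes (middle) and the percentage of summed signal taken by 48 genes (bottom); points are arrays and bars the mean of 2. The 8 CreER arrays lie above the 8 arrays without Cre in the middle and bottom panels and not in the top panel.

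Gene by gene, the call depended on the scale. CreER minus no Cre under 4OHT was called higher for 2 of 45 genes and lower for 0 as deposited, where 8.58% of all genes were higher and 30.0% lower. After median scaling 37 were higher and 0 lower, where 23.5% were higher and 29.2% lower. Under vehicle 1 gene was higher and 1 lower as deposited (7.97% and 26.6% of all genes), and 39 higher and 0 lower after scaling (28.7% and 23.4%). The members' median change under 4OHT was 0.05 as deposited and 0.19 after scaling, against -0.15 and -0.02 over all genes; under vehicle it was 0.04 and 0.22, against -0.13 and 0.04. The trimmed mean gave nearly the same counts as the median, with 37 higher and 0 lower under 4OHT (27.1% and 29.6% of all genes) and 39 higher and 1 lower under vehicle (28.1% and 27.5%). Quantile normalization fixes the values of the top ranks, where most of these genes lie. It gave 14 higher and 1 lower under 4OHT (27.7% and 28.3% of all genes) and 15 higher and 3 lower under vehicle (29.2% and 26.1%).

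The bright members were set beside 683 other genes with a mean signal of 2000 or more, without matching in signal above that floor. After median scaling 31 of 36 bright members were higher and 0 lower under 4OHT, against 234 higher and 144 lower of the 683 (34.3% and 21.1%). Under vehicle it was 33 higher and 0 lower of 36, against 285 and 100 of 683 (41.7% and 14.6%). The bright members' median change was 0.18 under 4OHT and 0.21 under vehicle, and that of the other bright genes was 0.05 and 0.09. After quantile normalization the bright members' median was 0.02 in both, with 8 higher and 1 lower of 36 under 4OHT and 9 higher and 3 lower under vehicle. Of the other bright genes 26.5% were higher and 35.1% lower under 4OHT, and 29.7% and 28.6% under vehicle. On that scale the bright members were called higher no more often than those genes, and lower less often (2.8% and 8.3%). The 9 dim members past the filter had 6 higher and 0 lower under each treatment, with medians of 0.34 under 4OHT and 0.35 under vehicle. Over all genes 27.7% were higher and 28.3% lower under 4OHT, and 29.2% and 26.1% under vehicle.

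**Figure D4:**
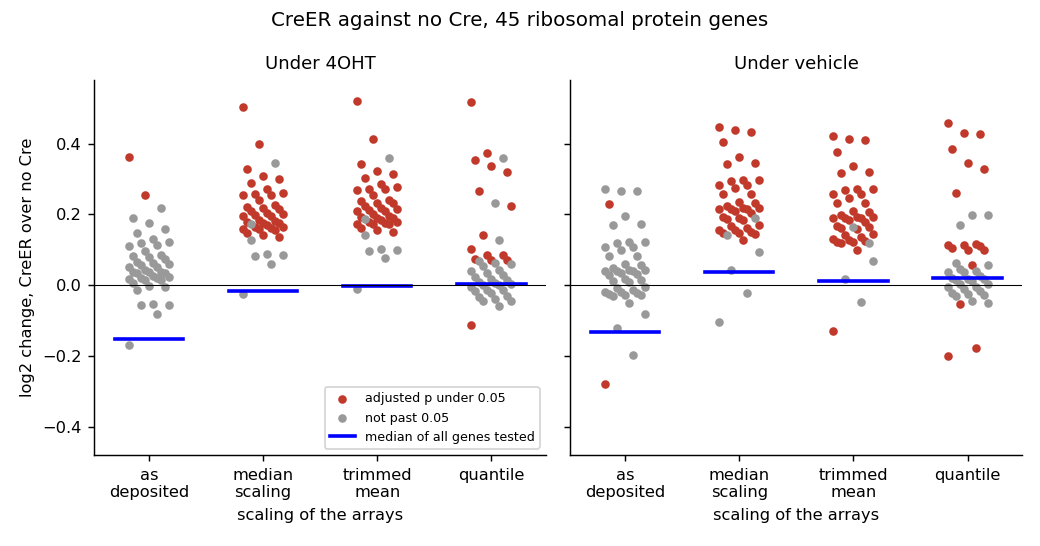
Log2 change of 45 ribosomal protein genes, CreER over no Cre, under 4OHT and under vehicle with the arrays scaled in 4 ways; each point is a gene, red has an adjusted p under 0.05, and the blue bar is the median of all 7619 genes tested. Points centre near 0 as deposited, near 0.2 after median or trimmed mean scaling and near 0.04 after quantile normalization, while the blue bar lies below 0 as deposited and near 0 otherwise.

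The genotype difference relative to the array median was present at each time and treatment. The members' median was 0.23 under 4OHT at 60 h, 0.24 under vehicle at 60 h, 0.15 under 4OHT at 36 h and 0.18 under vehicle at 36 h, with both CreER arrays above both arrays without Cre for 39, 40, 38 and 32 of 45 genes in that order. Over all genes that share was 37.7%, 41.8%, 30.5% and 34.8%. As deposited the same medians were -0.01, 0.13, 0.11 and -0.06. RNA quality probes moved in part with genotype: the 5′ to 3′ signal ratio of the actin control was 0.548 to 0.667 on the 4 arrays without Cre at 36 h and 0.716 to 0.891 on the other 12. At 60 h these ratios were 0.720 to 0.882 in CreER cultures and 0.773 to 0.891 without Cre. The summed signal of the neuron markers was 979 to 1777 on CreER arrays and 1564 to 2261 on those without Cre. The part of either in the difference was not tested. Genotype and the culture or animal it came from cannot be told apart.

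Rps19, a small subunit protein mutated in Diamond-Blackfan anaemia, was higher in CreER cultures as deposited and after each of the 3 scalings. Its signal under 4OHT at 60 h was 6352 and 8137 in CreER cultures, against 6850 and 5209 without Cre, and at 36 h it was 7410 and 7674, against 6868 and 5893. Under vehicle it was 8152 and 6953 at 60 h in CreER cultures, against 5326 and 5906 without Cre, and 6812 and 7749 at 36 h, against 7000 and 7213. The groups overlapped under 4OHT at 60 h and under vehicle at 36 h. The change was 0.26 ± 0.09 under 4OHT (adjusted p = 0.0200) and 0.23 ± 0.09 under vehicle (adjusted p = 0.0444) as deposited, and 0.40 ± 0.05 in both after median scaling (adjusted p = 1.48e-06 and 1.4e-06). As deposited, the call under 4OHT held only without replicate 1 of the CreER group at 60 h or of either group without Cre (adjusted p up to 0.205 otherwise), and that under vehicle only without replicate 2 of the CreER group at 60 h or replicate 1 of that at 36 h (up to 0.186 otherwise).

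Rpl37, a large subunit protein, was higher under 4OHT by 0.36 ± 0.13 as deposited (adjusted p = 0.0135, and up to 0.205 without replicate 2 of any of the 4 groups, each of which ended the call) and 0.50 ± 0.08 after scaling. Under vehicle it was 0.27 ± 0.13 as deposited (adjusted p = 0.0781) and 0.45 ± 0.08 after scaling (adjusted p = 0.000158). Rps6 was 0.33 ± 0.06 higher under 4OHT and 0.44 ± 0.06 higher under vehicle after scaling (adjusted p = 0.00013 and 5.6e-06), and 0.19 and 0.27 as deposited with adjusted p of 0.265 and 0.108. Rplp0 shows the dependence on scale: under vehicle it changed by -0.02 ± 0.09 as deposited and was 0.16 ± 0.05 higher after median scaling (adjusted p = 0.894 and 0.00736).

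Rps27l again stood apart. Under vehicle it was 0.28 lower in CreER cultures as deposited (-0.28 ± 0.10, adjusted p = 0.0223), a call that ended without replicate 2 of the CreER group at 60 h, replicate 1 of that at 36 h, replicate 2 of the group without Cre at 60 h or either replicate of that at 36 h (adjusted p up to 0.175). After scaling it was -0.10 ± 0.05 (adjusted p = 0.0997). Under 4OHT it was -0.08 ± 0.10 and 0.06 ± 0.05, with adjusted p of 0.568 and 0.336. Rpl22l1, Rpl39, Rps24, Rps27 and Rps27l were not called after median scaling under either treatment. Rpl27a was not called under vehicle, nor Rpl22, Rpl41 and Rps25 under 4OHT. For Rps24 this rests on the probe set used (-0.02 under vehicle and 0.09 under 4OHT). Its other bright probe sets gave 0.30, 0.35 and 0.34 under vehicle and 0.43, 0.45 and 0.43 under 4OHT. Its dim ones gave -0.10 and 0.19 under vehicle and 0.19 and 0.09 under 4OHT. The other Rpl22 probe set gave 0.36 under 4OHT, against 0.09 for the one used.

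Time in culture was compared within each genotype. In CreER cultures 60 h minus 36 h was called for 0 of 45 genes as deposited (5.28% of all genes called) and for 1 lower after scaling (16.1% of all genes lower), Rpl12 of the stalk base at -0.24 ± 0.08 (adjusted p = 0.0311). The unadjusted p was under 0.05 for 2 and 7 genes. Without Cre 0 genes were called as deposited (4.1% of all genes) and 13 were lower after scaling (39.6% of all genes lower), with median changes of -0.08 and -0.11 against -0.11 and -0.14 over all genes. The unadjusted p was under 0.05 for 4 and 20 members, and for 1632 and 4084 of all genes tested. Rps19 at -0.25 ± 0.05 (adjusted p = 0.000932), Rps27l at -0.24 ± 0.05 (adjusted p = 0.0013) and Rpl14 at -0.33 ± 0.08 (adjusted p = 0.0032) were among the 13. The trimmed mean gave 1 higher and 3 lower (13.4% and 13.7% of all genes), and quantile normalization 2 higher and 5 lower (12.3% and 14.8%). The actin ratio above differed between these times in cultures without Cre.

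The machinery that makes ribosomes was set beside the genes for their proteins, in the CreER comparison of 4OHT with vehicle over both times. Over all genes 4.0% were higher and 8.36% lower as deposited, and 13.9% and 19.1% after scaling. Of 80 genes for ribosome assembly and rRNA processing 26 were lower and 0 higher as deposited, and 51 were lower and 0 higher after scaling, with medians of -0.29 and -0.24. The lowest p-values were those of Lyar, a nucleolar protein, at -0.68 ± 0.13 (adjusted p = 2.12e-05), Rrp12 at -0.72 ± 0.15 (adjusted p = 0.000125), Mphosph10 of the small subunit processome at -0.62 ± 0.13 (adjusted p = 0.000129) and Gnl3, nucleostemin, at -0.56 ± 0.13 (adjusted p = 0.000502). Without Cre 0 of the 80 were called on either scale, where only 0.0656% and 0.263% of all genes were. Of 16 genes for RNA polymerase I and its factors 0 were called as deposited and 1 (Taf1a) was lower after scaling. Of 74 mitochondrial ribosomal protein genes 1 was lower as deposited, Mrpl50 at -0.38 ± 0.13 (adjusted p = 0.0387), and 10 were lower and 1 higher after scaling, on each scale a smaller share than over all genes. Of 35 translation factors and other TOP mRNAs 5 were lower as deposited, with Nap1l1 at -0.48 ± 0.11 (adjusted p = 0.000709) and Eif4e, the cap-binding protein, at -0.34 ± 0.11 (adjusted p = 0.02), and 9 after scaling, with 0 higher on either scale. The cytosolic ribosomal protein genes, at a median of -0.02 as deposited and 0.03 after scaling, had 0 and 2 genes lower of 45. No test of the difference between the lists was made.

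**Figure D5:**
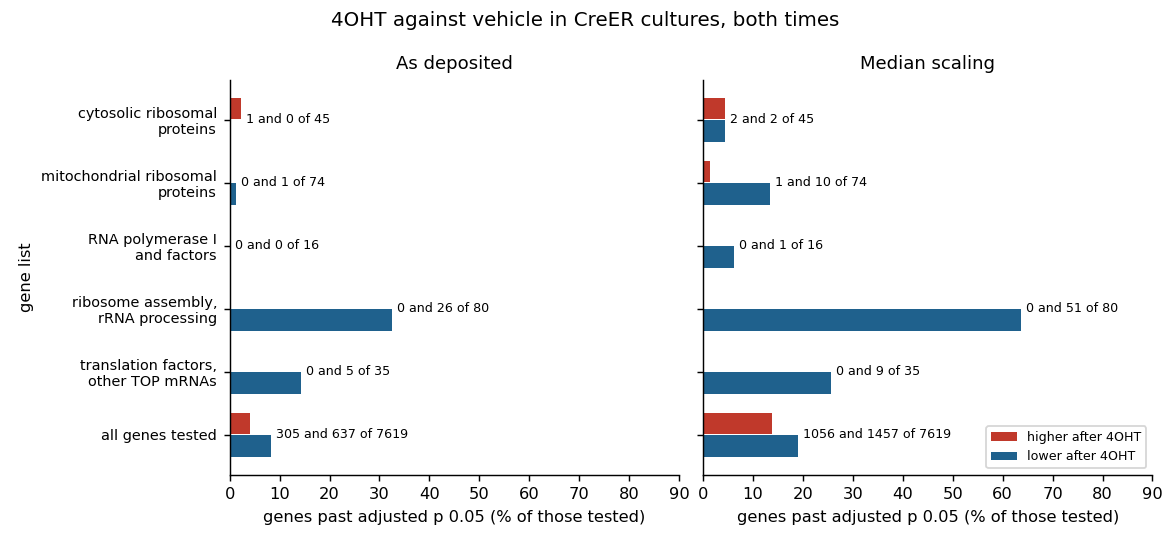
Percentage of genes of each list called higher (red) and lower (blue) in CreER cultures with 4OHT over vehicle, both times, as deposited and after median scaling; the numbers beside the bars are genes higher and lower of those tested. Ribosome assembly has 26 of 80 and 51 of 80 lower, and the cytosolic ribosomal proteins have 0 of 45 and 2 of 45 lower.

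The lists were also counted between genotypes, where after median scaling 28.7% of all genes were higher and 23.4% lower under vehicle, and 23.5% and 29.2% under 4OHT. As deposited these shares were 7.97% and 26.6% under vehicle, and 8.58% and 30.0% under 4OHT. After scaling 48 of 80 assembly genes were higher and 3 lower in CreER cultures under vehicle, and 15 were higher and 21 lower under 4OHT; as deposited it was 13 and 3 under vehicle and 1 and 20 under 4OHT. Of the 45 cytosolic ribosomal protein genes 39 were higher under vehicle and 37 under 4OHT after scaling. Whether any list differed between treatments was not tested. Of 74 mitochondrial ribosomal protein genes 45 were higher and 1 lower under vehicle and 30 higher and 3 lower under 4OHT after scaling, and as deposited 3 higher and 1 lower and 0 higher and 4 lower. Fau, which encodes a small subunit ribosomal protein fused to a ubiquitin-like domain, was 0.36 higher under vehicle after scaling (adjusted p = 8.01e-06) and 0.19 ± 0.10 higher as deposited (adjusted p = 0.116).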

How the data were processed

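Total RNA was extracted with TRIzol, labelled with biotin and hybridised, 1 array per sample, per the labels' protocols. The authors deposited 1 linear intensity (signal) per probe set and array; MAS5 is named per the submitters' processing notes, and its version and scaling target are not given in the sources used here. The 16 arrays were grouped by their titles. Of 22690 probe sets 64 controls were left out and 20380 had 1 symbol in the platform annotation; all 48 genes matched the RefSeq gene table of GRCm38.p6 by Entrez ID, with 0 symbols changed. A further 102 probe sets listed a ribosomal protein gene with other genes and were not used for the main values.

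Signals were tested as log2(signal + 16), which understates the change of dim genes, without rescaling. Genes were tested when their mean lay at or over percentile 40 of the probe sets (signal 51.1), which left 7619. One limma fit (limma 3.58.1, R 4.3.3) of 8 group means over 16 arrays with a mean-variance trend gave 10 contrasts, two-sided, with Benjamini-Hochberg adjustment over 7619 genes and a threshold of 0.05. Its prior degrees of freedom were infinite, so each gene's SE came from the trend; they were 11.1 after median scaling. The script was tested on simulated data. Array number limits the precision. Median scaling, quantile normalization, a trimmed mean (added after the data were seen), a pseudocount of 1, no filter, the mean of a gene's probe sets, no trend, only the arrays compared, a replicate block and leaving out each array were the alternatives.

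The members, the lists and the tests were chosen with earlier results of these data known. Lists were ribosome assembly, mitochondrial ribosomal proteins, RNA polymerase I, translation factors, Myc and mTOR control, paralogs, Mdm2-binding proteins, Fau, and cell type markers; 1 listed gene is not reported here. Genes named were, per comparison, the 6 largest rises and falls, the brightest, dimmest and most variable members, a fixed set of known members and paralogs, those under the filter, and the 2 to 4 genes of smallest p per list.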

Additional observations from a re-analysis of the deposited data

How the results depend on the processing

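The counts of ribosomal protein genes called depended mostly on the scaling of the arrays. In CreER cultures, 4OHT against vehicle over both times gave 1 gene as deposited, 4 after median scaling, 6 with the trimmed mean and 6 after quantile normalization, and 0 with no filter, no trend, the replicate block or only the arrays compared. At 36 h it was 1 as deposited, 4 with each of the 3 scalings and 0 with no filter. At 60 h it was 0 as deposited, 2 after median scaling, 3 with the trimmed mean and 3 after quantile normalization. For the response in CreER minus no Cre it was 0 as deposited and 1 with the trimmed mean or quantile normalization. For CreER against no Cre under vehicle it was 2 as deposited, 39 after median scaling, 40 with the trimmed mean, 18 after quantile normalization, 1 with the mean of probe sets, 1 with the replicate block, and 0 with no filter or no trend. Under 4OHT it was 2 as deposited, 37 after median scaling, 37 with the trimmed mean, 15 after quantile normalization, 1 with no trend and 0 with no filter. For 60 h against 36 h it was 0 as deposited, 1, 1 and 2 with median, trimmed mean and quantile scaling in CreER cultures, and 13, 4 and 7 without Cre. Without a filter more genes share the adjustment and the trend, and the prior degrees of freedom were 8.99 in place of infinite. Quantile normalization fixes the top ranks by construction. The part of these or of other causes in the counts was not tested.

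Leaving out 1 array gave 0 to 1 genes for 4OHT in CreER cultures at both times together and at 36 h, 0 to 2 at 60 h, 0 to 4 for CreER against no Cre under each treatment, 0 to 1 and 0 to 2 for time in CreER cultures and without Cre, and 0 for the other comparisons. The counts of 4 came without replicate 2 of the CreER vehicle group and without replicate 1 of the CreER 4OHT group, both at 60 h, and Rpl14 was called at 60 h without replicate 2 of the 4OHT or vehicle group (adjusted p as low as 0.0221). The arrays of equal replicate number did not pair: of 28 pairs of groups, r of deviations ran between -0.123 and 0.311 and 6 were over 0.1, so the block is given here only.

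Relative to the array median or trimmed mean, 12 changes of CreER against no Cre turned positive and passed the threshold that were at or below 0 as deposited. Under vehicle, the median-scaled and trimmed-mean values were 0.17 and 0.14 for Rpl37a, 0.14 and 0.12 for Rpl7, 0.16 and 0.13 for Rplp0, 0.16 and 0.14 for Rps20, 0.15 and 0.12 for Rps26, 0.15 and 0.12 for Rps28, 0.15 and 0.12 for Rps29, 0.17 and 0.14 for Rps4x, 0.15 and 0.13 for Rps7, and 0.13 and 0.10 for Rps9. Under 4OHT they were 0.14 and 0.16 for Rpl4 and 0.14 and 0.15 for Rps29. Probe sets did not all share the sign. Under vehicle after median scaling another probe set gave -0.24 for Rpl7 (mean signal 2006), -0.20 for Rps9 (1399) and -0.04 for Rpl37a (491). A further probe set of each gave 0.12, 0.21 and 0.22. Over all results and settings 1350 values kept direction and side of the threshold, 205 passed it only under the alternative, 49 no longer passed it and 24 turned in sign. With 2 arrays a group, small changes of dim members such as Rps27 and Rpl39 could not be resolved.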

Other observations

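Within the members, 7 genes listed as paralogs had a probe set and 4 passed the filter (Rpl7l1, Rpl22l1, Rps4x and Rps27l). The list held both Rps4x, with a mean signal of 7371, and Rps4l, with 1.16, so it was not limited to minor forms. With 4OHT in CreER cultures over both times 4.0% of all genes were higher and 8.36% lower as deposited, and 13.9% and 19.1% after median scaling. In this comparison 0 of the 4 were called as deposited, and 1 was higher and 1 lower after median scaling. Of 7 members that bind Mdm2 (Rpl11, Rps3, Rps7, Rps14, Rps25, Rps27 and Rps27l), 0 were called as deposited, and 1 was higher and 1 lower after scaling, Rps27l and Rps25. In the list of Myc and mTOR control 4 of 26 genes tested were higher and 0 lower as deposited, and 5 higher and 1 lower after scaling. The 4 were Mxd4, a Max partner that opposes Myc (0.98 ± 0.13, adjusted p = 4.12e-11), Ddit4 and Sesn2, which restrain mTORC1 (0.56 ± 0.13 and 0.54 ± 0.14, adjusted p = 0.000386 and 0.00182), and Mdm2 (0.42 ± 0.13, adjusted p = 0.0178). Fau changed by -0.03 ± 0.10 in the same comparison (adjusted p = 0.885).

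The 5 genes outside the family whose median-scaled log2 signal followed the members' mean most closely over the 16 arrays were Atp5g2 (Pearson r 0.981), Man2c1 (0.980), Psmb5 (0.974), Pdhb (0.970) and Fau (0.969). These r values include the difference between genotypes; within the 8 CreER arrays they were 0.867, 0.801, 0.811, 0.732 and 0.553, and within the 8 arrays without Cre 0.940, 0.960, 0.926, 0.936 and 0.961. The 16 arrays share 2 genotypes and the scaling, and no test is attached.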
